A study of Mus musculus with 24 samples.

Results

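Endometriotic lesions were compared with the uterus of sham-operated mice at 3 months after surgery, by RNA sequencing of whole tissue. The comparison took the 4 lesion libraries and the 4 sham libraries of that time, chosen by their labels, out of 24 libraries in 6 groups. The lesions came from mice of genotype Pgrcre/+Rosa26mTmG/+ and are labelled subfertile. The sham uteri came from Rosa26mTmG/+ mice and are labelled fertile. Mice of both groups were of a mixed C57BL/6 and SV129 background, were operated on at 8 weeks of age, were mated 3 months later and were sampled on pregnancy day 3.5. Pgr-Cre is active in cells that express the progesterone receptor, and mTmG is a membrane reporter that switches colour after Cre. By the sample labels only the lesion mice carry Cre, whereas the series text gives Cre to the mice with endometriosis, so the genotype cannot be told apart from the tissue or the surgery. How many lesions or hosts went into a library is not stated.

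In endometriosis, tissue resembling the lining of the uterus grows outside it, usually on the peritoneum or the ovary. On pregnancy day 3.5 the mouse uterus prepares for the embryo: progesterone, acting through its receptor Pgr, stops the epithelium from dividing, sends Indian hedgehog (Ihh) from epithelium to stroma and induces Hand2 there, and estrogen, acting through Esr1, triggers Lif from the glands. Lesions in patients are known for inflammation, fibrosis, repeated bleeding and a weak response to progesterone. A lesion collected from the abdomen may bring along the tissue on which it grew.

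Each value below is a read count scaled for library size (CPM), and libraries are numbered as in their labels. Total counts ran from 52113101 to 54449764 in lesions and from 46945159 to 59407134 in sham libraries. The 4 lesions differed from each other far more than the sham uteri did. Across genes, which are not independent replicates, log2 CPM correlated between 0.954 and 0.990 for pairs of sham libraries and between 0.817 and 0.974 for pairs of lesions. Lesion 1 resembled the sham libraries (0.870 to 0.879) more than it resembled any other lesion (0.817 to 0.843). Lesions 3 and 4 were the closest pair, at 0.974.

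Lesion 1 carried ovarian transcripts. Genes of ovarian steroid synthesis summed to 29933 CPM in lesion 1, to 704, 337 and 416 CPM in lesions 2, 3 and 4, and to 253 to 425 CPM in sham. Cyp11a1, which makes the first steroid from cholesterol, was at 7338 CPM in it and at 77.1, 1.98 and 2.67 CPM in the other lesions. Genes of granulosa, theca and luteal cells summed to 8156 CPM in lesion 1, where the other 7 libraries held 561 to 825 CPM. Oocyte genes summed to 419 CPM against 38.7 to 74.1 CPM elsewhere. Zp3, a protein of the egg coat, was at 23.4 CPM in lesion 1 and had no counts in lesions 3 and 4 or in any sham library.

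Lesions 2, 3 and 4 carried skeletal muscle transcripts. The 30 muscle genes summed to 77077, 25118 and 13521 CPM in them, to 142 CPM in lesion 1 and to 187 to 352 CPM in sham. Adipocyte genes summed to 11442 CPM in lesion 2, to 3109 and 1418 CPM in lesions 3 and 4, to 737 CPM in lesion 1 and to 297 to 417 CPM in sham. Mesothelium genes summed to 3413 CPM in lesion 2 and to 957 to 1091 CPM in the other lesions, beside 1157 to 2044 CPM in sham. Pancreas and liver genes summed to 114, 1172, 277 and 443 CPM in lesions 1 to 4 and to 37.3 to 80.0 CPM in sham, and most of that was Trf, the iron carrier transferrin, at 70.1, 1157, 270.3 and 436.4 CPM.

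The labelled tissue was checked with its own markers. Epithelial genes summed to 1712 and 1171 CPM in lesions 3 and 4, the first within and the second just below the sham range of 1173 to 3298 CPM, but to only 367 and 225 CPM in lesions 1 and 2. Epcam, a surface protein of nearly all epithelia, was at 25.2, 5.22, 141 and 86.4 CPM in lesions 1 to 4 and at 76.4, 139, 162 and 357 CPM in sham 1 to 4. Hoxa10, which gives the uterus its identity along the female tract, was at 0.818 and 13.2 CPM in lesions 1 and 2 and at 226 and 109 CPM in lesions 3 and 4, against 182 to 386 CPM in sham. Lesions 1 and 2 were thus low for epithelial genes and Hoxa10, but not for every uterine list. Genes of the endometrial stroma summed to 2459, 10231, 4950.3 and 5921 CPM in lesions 1 to 4 and to 6049.7 to 7134 CPM in sham, so lesion 2 was the highest library. Gland genes summed to 3692 CPM in lesion 1, to 264, 417 and 229.9 CPM in lesions 2 to 4 and to 580.4 to 911 CPM in sham. In lesion 1 that sum came mostly from Prlr, the prolactin receptor, at 1837 CPM and Aldh1a1, which makes retinoic acid, at 1732 CPM. Both genes were picked once their values were known.

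**Figure D1:**
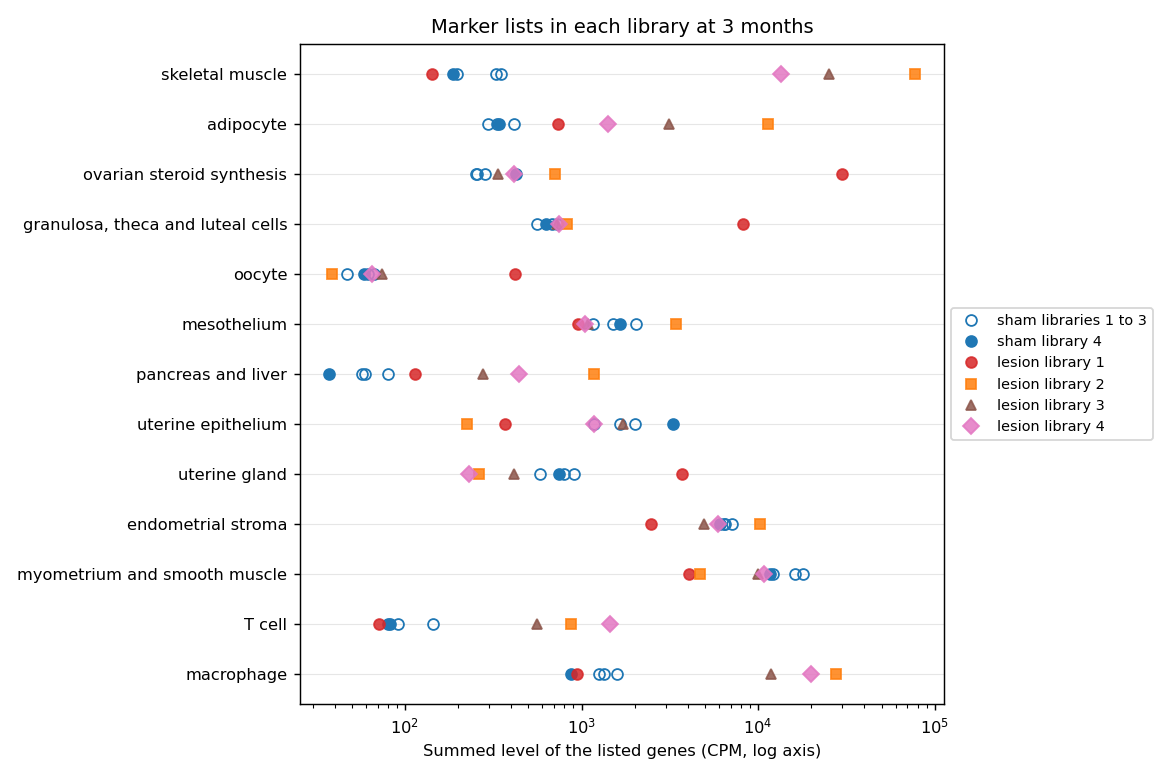
Summed level of each marker list (CPM, log axis) in every library at 3 months. Lesion 1 stands alone for the 3 ovarian lists, lesions 2, 3 and 4 stand above all sham libraries for skeletal muscle, T cell and macrophage genes, and lesions 1 and 2 lie below all sham libraries for uterine epithelium.

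Sham 4 stood somewhat apart from sham 1 to 3. Its correlations with them were 0.954 to 0.966, while sham 2 and 3 correlated at 0.990. Cell cycle genes summed to 2098 CPM in sham 4 and to 1081 to 1351 CPM in sham 1 to 3, and epithelial genes to 3298 CPM against 1173 to 2005 CPM. Slc2a3, a glucose transporter, was at 16.2 CPM in it and at 238, 243 and 262 CPM in the other sham libraries. Results are therefore given with and without sham 4, and with and without lesion 1 where it matters.

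edgeR called 2600 of 20068 tested genes at an adjusted p under 0.05. Of all tested genes, 7.82% were called higher in lesions (1570) and 5.13% lower (1030). These shares are the background for the edgeR counts below on the 8 libraries. The median log2 difference (lesions minus sham) over all genes was 0.02. Without sham 4, 360 genes (1.73%) were higher and 389 (1.86%) lower, which is the background for counts without sham 4. All 4 lesions lay above all 4 sham libraries for 9.71% of tested genes and below them for 12.2%.

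The number of calls depended on single libraries. Without lesion 1 it was 6773 of 20936 tested genes (4004 higher and 2769 lower), and of the 2600 genes 2595 were called again with the same sign. Among the 20068 genes tested with all 8 libraries, 3618 were then higher and 2680 lower. The number of calls was 890, 1798 and 873 without lesions 2, 3 and 4. Without sham 1 it was 561, without sham 2 it was 0, without sham 3 it was 56 and without sham 4 it was 749. Without sham 2 the lowest adjusted p in edgeR was 0.0509, and 5444 genes had an unadjusted p below 0.05. With all 8 libraries that number was 6827. DESeq2 called 6211 genes and limma voom with sample weights 7324. No gene was called under all 16 alternatives. The genes that reached 14 of them, the highest number for any gene named here, missed the threshold with a term for the replicate number and without sham 2. The p-values measure the spread between these samples, since the labels tie no library to an animal of its own.

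**Figure D2:**
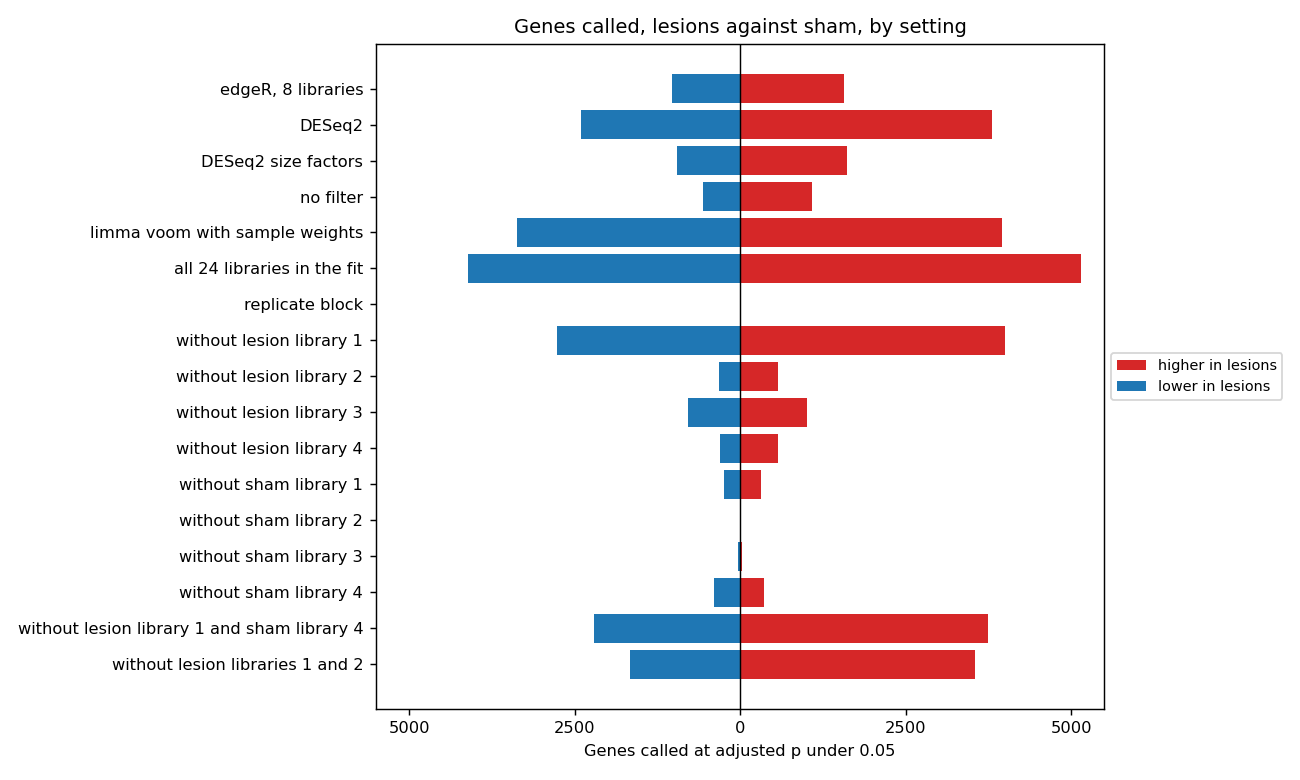
Number of genes called higher (right) and lower (left) in lesions under each way of fitting the data. The bar for all 8 libraries in edgeR holds 2600 genes, and leaving out lesion 1 raised the number to 6773 while leaving out sham 2 brought it to 0.

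Few large departures were shared by all 4 lesions, and more by 3 of them. Genes at least 4-fold above every sham library numbered 750, 1395, 873 and 1315 in lesions 1 to 4, and 95 genes met that mark in all 4 and 637 in exactly 3. Genes at least 4-fold below every sham library numbered 1105, 994, 141 and 470, and 51 met it in all 4 and 140 in exactly 3. Lesion 1 held 519 genes above and 626 below that met the mark in no other lesion, and lesion 3 only 35 and 18.

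The 8 genes with the widest gap upward included Ccn5, Grem1 and F10. Ccn5 (ENSMUSG00000027656.8), a secreted matrix protein of the family that includes connective tissue growth factor, was at 8.36, 25.3, 19.4 and 53.7 CPM in lesions 1 to 4 and at 0.0678, 0.138, 0.109 and 0.0682 CPM in sham. All lesions lay far above all sham uteri, with a log2 difference of 8.10 ± 0.72 SE (adjusted p = 0.00682, and 0.0197 without sham 4). Grem1 (ENSMUSG00000074934.4), a secreted inhibitor of bone morphogenetic proteins, was at 31.4, 25.9, 21.8 and 92.9 CPM in lesions and at 0.475, 0.118, 0.156 and 0.0341 CPM in sham. It rose by 7.76 ± 0.93 (adjusted p = 0.00921, and 0.0234 without sham 4). F10 (ENSMUSG00000031444.17), coagulation factor X, was at 10.3, 91.1, 49.5 and 79.3 CPM in lesions and at most 0.28 CPM in sham, a log2 difference of 8.36 ± 0.84 (adjusted p = 0.00723). These 3 genes stood above every sham library in lesion 1 as well, which held little muscle RNA but carried ovarian transcripts. The part of other tissues in these 3 differences was not tested.

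The other 5 of the 8 genes with the widest gap upward included proteins of striated muscle. Smpx, a small protein of striated muscle, was at 16.1, 131, 46.5 and 13.6 CPM in lesions 1 to 4, at 0.0393 and 0.0171 CPM in sham 2 and 4 and at 0 in sham 1 and 3. Its log2 difference was 11.72 ± 1.29 (adjusted p = 0.00853). Myom2, a protein of the sarcomere's M band, was at 7.51, 662, 227 and 123 CPM in lesions and at most 0.153 CPM in sham. Ryr1, the calcium release channel of skeletal muscle, was at 70.4, 1808, 543.9 and 337.3 CPM in lesions and at 1.01 to 1.87 CPM in sham (8.91 ± 1.12, adjusted p = 0.0105). Lesion 1 was above every sham library for all 3 although the summed muscle level in it was not. Lrrc30 and Lrrc38, the latter an auxiliary subunit of potassium channels, had no counts in sham and were at least 736-fold and at least 426-fold higher in lesions, with 3 counts summed over sham taken as the floor.

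**Figure D3:**
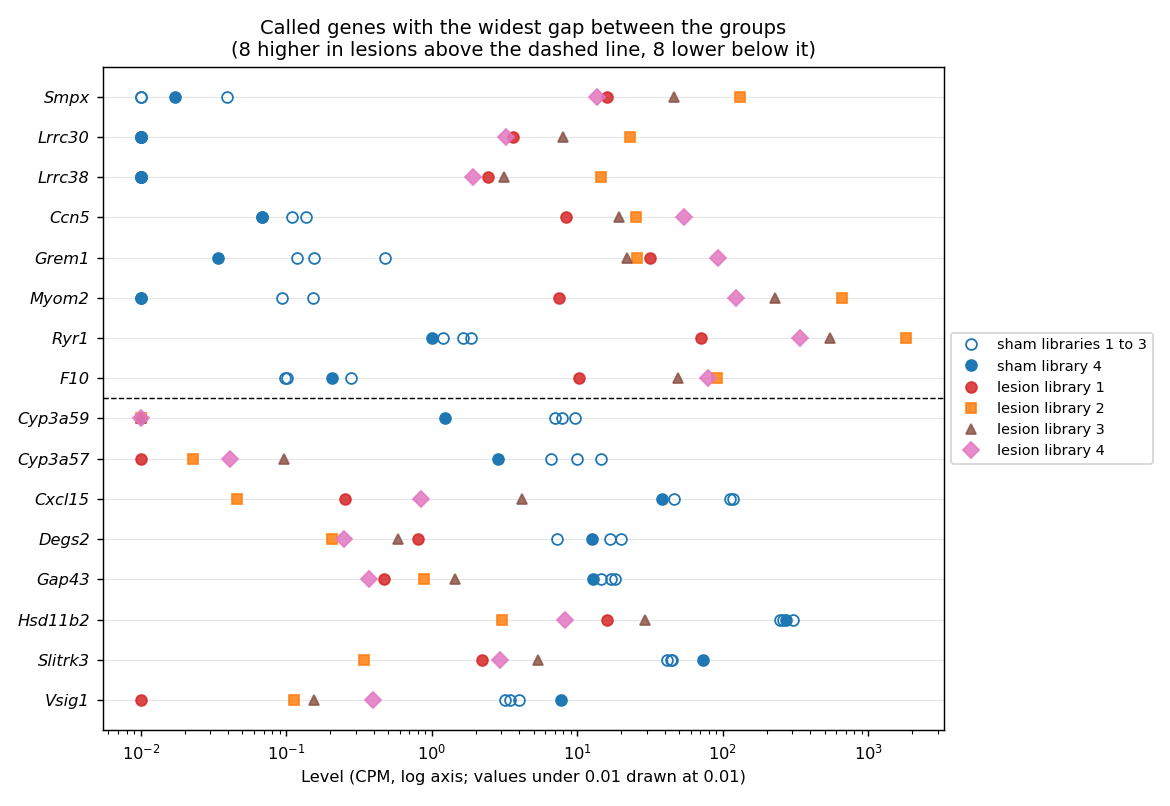
Level (CPM, log axis, values under 0.01 drawn at 0.01) of the called genes with the widest gap between the groups, in every library. In each of the 16 genes the 4 lesions and the 4 sham libraries are separated, with Hsd11b2 at 245 to 301 CPM in sham and at 3.03 to 29 CPM in lesions.

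On the lower side, 2 members of the Cyp3a family came first. These are monooxygenases of the endoplasmic reticulum that oxidise steroids and foreign compounds. Cyp3a59 had no counts in any lesion and was at 7.86, 7.08, 9.65 and 1.23 CPM in sham 1 to 4, so it was at least 428-fold lower in lesions (adjusted p = 0.0167). Cyp3a57 was at 0, 0.0228, 0.0969 and 0.0413 CPM in lesions and at 6.64, 9.95, 14.7 and 2.83 CPM in sham, a log2 difference of -7.64 ± 0.95 (adjusted p = 0.0104). Sham 4 was the lowest sham library for both, and both stayed called without it (adjusted p = 0.0197 and 0.0225). Of 10 tested genes in the list of such monooxygenases, 0 were higher and these 2 lower. Because the counting of reads that fit both copies is not described, the split between the pair is uncertain.

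The starts of both genes are shown because they moved together and lie on the same chromosome. The 250 bases before each annotated start were taken from RefSeq (build GRCm38.p6, forward strand), which is not the build used for the counts. Capitals mark AGGTCA, the half-site that many nuclear receptors bind, read on the forward strand and, as TGACCT, on the reverse strand.
Cyp3a59 at chr5:146079008-146079257: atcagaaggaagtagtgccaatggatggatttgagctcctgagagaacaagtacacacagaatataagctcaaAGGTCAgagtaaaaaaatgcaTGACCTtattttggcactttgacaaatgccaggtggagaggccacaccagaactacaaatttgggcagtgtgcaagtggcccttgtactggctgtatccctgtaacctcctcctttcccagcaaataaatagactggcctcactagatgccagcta
Cyp3a57 at chr5:145345019-145345268: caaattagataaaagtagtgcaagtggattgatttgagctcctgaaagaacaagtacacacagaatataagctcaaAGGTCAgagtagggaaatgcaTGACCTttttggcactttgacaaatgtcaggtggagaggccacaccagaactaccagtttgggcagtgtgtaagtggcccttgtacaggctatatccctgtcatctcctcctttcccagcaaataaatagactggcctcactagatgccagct
Both windows hold 1 match on each strand, and aligned end to end they shared 228 identical bases over 253 columns (90.1%). Of 32851 promoter windows of the same length, 4607 (14%) hold the motif on either strand and 199 (0.606%) on both. A match is a description of these letters only.

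The next genes on the lower side are known from epithelium, steroid or lipid metabolism and nerve. Which cells expressed them here was not tested. Hsd11b2 (ENSMUSG00000031891.7), the enzyme that inactivates glucocorticoids and responds to progesterone in the uterus, was at 16, 3.03, 29 and 8.21 CPM in lesions and at 260, 301, 245 and 270 CPM in sham. The sham values were tight and the lesions all far below, with a log2 difference of -4.26 ± 0.65 (adjusted p = 0.015, and 0.0385 without sham 4). Degs2, a desaturase and hydroxylase of sphingolipids, was at 0.205 to 0.8 CPM in lesions and at 7.24 to 20 CPM in sham (-4.94 ± 0.58, adjusted p = 0.009). Gap43, a protein of growing nerve endings, was at 0.473, 0.888, 1.45 and 0.372 CPM in lesions and at 18, 14.7, 17.1 and 12.8 CPM in sham (-4.29 ± 0.48, adjusted p = 0.00854). Slitrk3, a synaptic adhesion protein, was at 0.342 to 5.39 CPM against 41.1 to 72.8 CPM. These 4 were also called without sham 4. Cxcl15, a chemokine made by epithelial glands, and Vsig1, an adhesion protein of epithelial junctions, were called (-5.89 and -4.78), but without sham 4 their adjusted p was 0.0555 and 0.0597.

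Of the sex steroid receptors, Esr1 fell and Pgr missed the threshold in edgeR on the 8 libraries. Pgr was at 6.89, 14.2, 157 and 59.5 CPM in lesions 1 to 4 and at 254, 177, 204 and 498 CPM in sham 1 to 4. All lesions lay below all sham uteri, yet lesion 3 was close to sham 2. The log2 difference of -2.25 ± 0.91 had an adjusted p of 0.126 in edgeR (0.0915 without lesion 1). Of 16 alternatives 2 called Pgr lower, DESeq2 (adjusted p = 0.0444) and edgeR with all 24 libraries in the fit (0.00529). By the sample labels the lesion mice, and not the sham mice, carry Pgrcre/+, which names an allele of Pgr itself. For the Pgr level, that genotype cannot be told apart from the tissue or the surgery. Esr1 was at 130, 99.7, 266 and 156 CPM in lesions and at 521, 424, 444 and 714 CPM in sham, again without overlap. It fell by 1.69 ± 0.33 on the log2 scale (adjusted p = 0.0241), and missed the threshold without sham 4 (0.0564). Gper1, a membrane receptor that responds to estrogen, was at 1.56, 0.866, 1.03 and 0.517 CPM against 4.54, 4.07, 5.03 and 7.85 CPM (-2.43 ± 0.41, adjusted p = 0.0191, and 0.0432 without sham 4). Among 20 receptors and cofactors 1 was higher and 3 lower. The higher one was Nr3c2, the mineralocorticoid receptor (1.36), and the third lower one was Fkbp4, the chaperone that keeps Pgr ready to bind hormone (-1.07). Without sham 4 only Gper1 of the 20 was called.

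**Figure D4:**
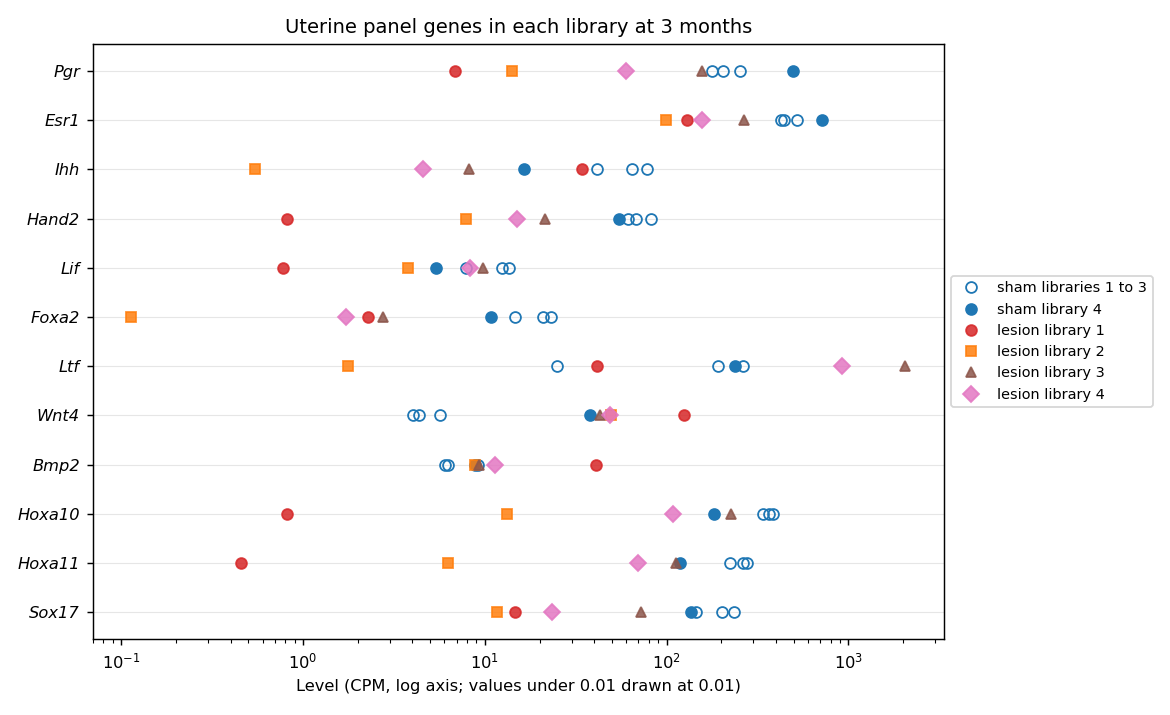
Level (CPM, log axis) of 12 genes of uterine function in every library at 3 months. For Pgr, Esr1, Hand2, Foxa2, Hoxa11 and Sox17 all lesions lie below all sham libraries, for Wnt4 all lie above, and Ltf runs from 1.78 CPM in lesion 2 to 2054 CPM in lesion 3.

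Some genes of the progesterone response fell in lesions. Of 35 tested genes of the progesterone response and implantation, 6 were lower and 1 higher, with a median log2 difference of -1.11, and without sham 4 the counts were 3 and 2. Ihh, the epithelial signal, was at 34.2, 0.547, 8.22 and 4.59 CPM in lesions and at 41.5, 77.6, 64.3 and 16.5 CPM in sham. It did not pass with all 8 libraries in edgeR (-2.07 ± 1.04, adjusted p = 0.198). Without lesion 1, which lay inside the sham range, Ihh was called lower (-3.49, adjusted p = 0.0233). In all, 5 of 16 alternatives called it. Hand2, the stromal factor that restrains epithelial growth, was at 0.818, 7.9, 21.5 and 15.1 CPM against 82.3, 68.3, 61.2 and 54.6 CPM. Its groups did not overlap, but the adjusted p was 0.0632 (-2.56 ± 0.77), and 0.00325 without lesion 1.

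Sox17 and Msx1, transcription factors that the uterus needs for implantation, fell, though neither was called without sham 4. Sox17, which acts with Pgr in the epithelium and also marks arteries, was at 14.6, 11.7, 72.3 and 23.4 CPM in lesions and at 145, 201, 234 and 137 CPM in sham (-2.55 ± 0.59, adjusted p = 0.035, and 0.0656 without sham 4). Msx1, which keeps the uterus receptive, was at 2.24, 5.65, 50.4 and 30.5 CPM against 166, 269, 291 and 248 CPM (-3.46 ± 0.90, adjusted p = 0.0446, and 0.0865 without sham 4). Lif, the cytokine that opens implantation, was at 0.781, 3.78, 9.83 and 8.29 CPM against 7.92, 12.4, 13.6 and 5.37 CPM. Its groups overlapped and it did not pass (-0.79 ± 0.69, adjusted p = 0.446). Hoxa10 and Hoxa11 differed by -1.87 ± 1.23 and -2.22 ± 1.24 (adjusted p = 0.316 and 0.243). The epithelial marker levels given above were lowest in the lesions with the lowest Pgr, Hoxa10 and Sox17, and their part in these differences was not tested. In bulk tissue, fewer cells of a type and less RNA per cell cannot be told apart.

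Growth factors of the decidual reaction did not pass. Wnt4 was at 125, 49.5, 42.9 and 48.5 CPM in lesions and at 5.7, 4.05, 4.36 and 37.9 CPM in sham. Sham 4 alone came near the lesions, and the adjusted p went from 0.0915 (2.36 ± 0.83) to 0.0234 (3.82) without it. Bmp2 was at 41, 8.79, 9.25 and 11.4 CPM in lesions and at 6.05 to 9.22 CPM in sham (1.21 ± 0.53, adjusted p = 0.152), with lesion 1 the highest library.

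Estrogen-responsive genes went in no common direction. Of 22 tested, 1 was higher and 3 lower (0 and 2 without sham 4), and the median was -0.22. Ltf, lactoferrin, a classic estrogen target of the epithelium, was at 41.4, 1.78, 2054 and 926.7 CPM in lesions 1 to 4 and at 24.9, 190.7, 263.1 and 237.1 CPM in sham 1 to 4. Lesions 3 and 4 lay above all sham libraries and lesion 2 below them, so the difference of 2.08 ± 1.58 did not pass (adjusted p = 0.384). Pla2g10, a secreted phospholipase, was at 0.145, 0, 0.388 and 0.062 CPM in lesions and at 14.6, 23.3, 27.5 and 0.58 CPM in sham (-6.75 ± 1.42, adjusted p = 0.0286). Aqp8, a water channel, was at 0.0456 to 0.309 CPM in lesions and at 0.746, 17.1, 20.3 and 23.7 CPM in sham 1 to 4 (-6.41 ± 1.15, adjusted p = 0.0213). Sham 4 was low for the first and sham 1 for the second. Aqp5, a related channel, fell (-2.53), and Clca3a2 rose (4.37), although lesion 1 lay below every sham library for it.

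Some gland genes fell, and no general epithelial gene passed in edgeR on the 8 libraries. Of 12 tested gland genes 4 were lower and 0 higher, and 2 were lower without sham 4. Foxa2, the factor without which uterine glands do not form, was at 2.27, 0.114, 2.77 and 1.74 CPM in lesions and at 14.7, 23.1, 20.8 and 10.8 CPM in sham (-3.33 ± 0.79, adjusted p = 0.0364, and 0.0658 without sham 4). Wfdc3, a protease inhibitor-like protein, was at 0.228 to 0.672 CPM in lesions and at 2.56 to 16.2 CPM in sham (-4.53 ± 0.67, adjusted p = 0.0148, and 0.0192 without sham 4). Sox9 fell by 2.17. Of 26 epithelial genes 0 were called in edgeR on the 8 libraries in either direction. Epcam was at -1.51 ± 0.90 (adjusted p = 0.269) and Cdh1, the adhesion protein of epithelial sheets, at -1.59 ± 0.95 (adjusted p = 0.27). DESeq2 called 2 of these 26 lower, and limma voom 2 lower and 2 higher. With all 24 libraries in the fit edgeR called 14 lower and 0 higher, beside 3791 lower of 20068 over all genes. Without lesions 1 and 2 it called 1 lower. In lesions 3 and 4, where the median epithelial gene was 0.18 and 0.92 log2 units below the sham mean, the median gland gene was 1.41 and 2.46 units below it. Among 14 genes of ciliated epithelium 11 had a positive difference (median 1.07), and the list summed to 297 CPM in lesion 1, to 21.2 to 29.1 CPM in the other lesions and to 38.3 to 53.2 CPM in sham. Only Tekt2, a protein of the ciliary shaft, was called, and it was lower (-1.64). Foxj1, the master factor of cilia, was at 34.7 CPM in lesion 1 and at 0.905 to 7.78 CPM in the other 7 libraries.

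The stroma and the muscle wall of the uterus were represented unevenly. Of 16 stromal genes only 1 was called lower, near the share over all genes. It was Cd34, a surface protein of stromal and vessel cells, at 143, 323, 141 and 134 CPM against 550, 584, 584 and 403 CPM (-1.52, adjusted p = 0.0295, and 0.0524 without sham 4). Acta2, smooth muscle actin, was at 780.1, 238.1, 1826 and 1692 CPM in lesions and at 3292, 3974, 2523 and 2529 CPM in sham, and did not pass (-1.44 ± 0.57, adjusted p = 0.121). Of 20 genes of the myometrium 1 was lower and 1 higher, near the shares over all genes. Smtn, a smooth muscle protein, was lower (-1.31), and Mylk4, a myosin kinase, was higher (9.36), both without overlap. Neither was called without sham 4. Mylk4, at 0.709, 525, 77.8 and 43.4 CPM in lesions 1 to 4, followed the summed skeletal muscle level across lesions, whose part in it was not tested. For 8 of the 20 genes all lesions lay below all sham libraries, against 12.2% of all genes. With all 24 libraries in the edgeR fit 11 were lower and 4 higher, beside 3791 and 4640 of 20068 over all genes.

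Among genes that pattern the female tract, 3 Hoxc genes rose and Hoxd9 fell. Of 18 tested, 3 were higher and 1 lower, the latter near the share over all genes. Hoxc8 was at 22, 10.3, 12.2 and 15 CPM in lesions and at 0.915, 1.06, 2.13 and 1.33 CPM in sham (3.45 ± 0.39, adjusted p = 0.00854). Hoxc9 was at 2.82, 7.52, 4.23 and 6.16 CPM against 0.593, 0.177, 0.467 and 0.324 CPM (3.72 ± 0.50, adjusted p = 0.0123), and Hoxc10 also rose (2.32, adjusted p = 0.048). Hoxd9 was at 24.2, 11.6, 32.8 and 23 CPM against 77.4, 78.3, 76 and 65.7 CPM (-1.70 ± 0.29, adjusted p = 0.0188). In each of these 4 genes the groups did not overlap, lesion 1 included, and all but Hoxc10 were called without sham 4.

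Most skeletal muscle genes were far higher in lesions 2 to 4 than in lesion 1, although for 8 of 22 every lesion, lesion 1 included, lay above every sham library. Of 30 listed genes 22 passed the filter on low counts, and 19 of these were higher and 0 lower, with a median of 8.17. A gene near 0 in sham passes that filter only through the lesions. The count of 0 lower and the 8 genes without overlap therefore follow in part from the filter. Without sham 4, 29 were tested and only 1 was called. Atp2a1, the calcium pump of fast muscle fibres, was at 0.327, 10330, 3788 and 2129 CPM in lesions 1 to 4 and at most 0.271 CPM in sham (14.8 ± 2.77, adjusted p = 0.0227, and 0.0607 without sham 4). Ckm, muscle creatine kinase, was at 0.291, 4612, 1458 and 757.8 CPM against 1.15 to 1.89 CPM in sham. Acta1, skeletal actin, was at 0.473, 11178, 3487 and 1813 CPM against 71.4 to 209.2 CPM, with lesion 1 far under sham, and did not pass (4.86 ± 1.83, adjusted p = 0.107, and 0.00204 without lesion 1). Myh7, Myl1 and Mb, parts of the contractile and oxygen-storing machinery, rose as well, and lesion 1 was at 0.0727 to 0.509 CPM for them.

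Fat cell genes had their highest sum in lesion 2. Of 17 tested, 7 were higher and 0 lower (1 higher without sham 4), with a median of 3.67. Lpl, which frees fatty acids from blood lipids, was at 104.2, 2624, 625.1 and 502.5 CPM in lesions and at 78.7, 42.5, 50.7 and 76.4 CPM in sham (3.96 ± 0.90, adjusted p = 0.0337). Lep, the fat hormone leptin, was at 1.07, 79.7, 11.7 and 1.14 CPM against 0 to 0.39 CPM (7.30, adjusted p = 0.0496). Adipoq, which defines the cell type, was at 7.18, 306, 45 and 11.1 CPM against 0.138 to 8.24 CPM and did not pass (5.16 ± 1.77, adjusted p = 0.0852). Car3, an enzyme abundant in fat cells, was also higher, and so was Plin4, a lipid droplet protein, at 307, 194, 51.2 and 25 CPM in lesions against 9.66 to 17.8 CPM in sham. Lesion 1 was the highest library for Plin4.

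The size of the difference in ovarian genes rested on lesion 1. Star, which carries cholesterol into mitochondria, was at 5849, 98.3, 20 and 48.1 CPM in lesions 1 to 4 and at 5.2 to 11.4 CPM in sham. Its log2 difference went from 7.71 ± 2.08 (adjusted p = 0.0479) to 2.94 without lesion 1 (adjusted p = 0.00591). Cyp11a1 went from 13.85 to 7.75 and Gata4, a factor of steroid-making cells, from 10.2 to 4.73. Both stayed called without lesion 1 (adjusted p = 0.00798 and 0.0134). Without sham 4, Star, Cyp11a1 and Gata4 were not called (adjusted p = 0.103, 0.0935 and 0.104). Hsd3b1, which acts after Cyp11a1, was at 5936, 58.7, 1.14 and 1.7 CPM and had no counts in sham. Of 15 tested genes of steroid synthesis 2 were higher and 1 lower, the last being Akr1b7 (-2.67), against 1 and 0 without sham 4. Of 21 genes of granulosa, theca and luteal cells 5 were higher (2 without sham 4), and of 7 oocyte genes 1 was, Oosp1 (4.78), at 8.94, 2.64, 1.32 and 2.27 CPM in lesions and at 0.0512 to 0.22 CPM in sham. Inhba, a subunit of activin, was at 1290, 63.5, 72.7 and 71.5 CPM against 4.67 to 13.3 CPM (5.58 ± 1.26, and 3.14 without lesion 1), and was not called without sham 4 (adjusted p = 0.0707). Runx1, a transcription factor of blood and follicle cells, had nearly equal lesions at 60.2, 86.5, 75.1 and 82.4 CPM against 12.1, 11.5, 13 and 24.3 CPM (2.32 ± 0.28, adjusted p = 0.00916, and 0.0137 without sham 4).

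**Figure D5:**
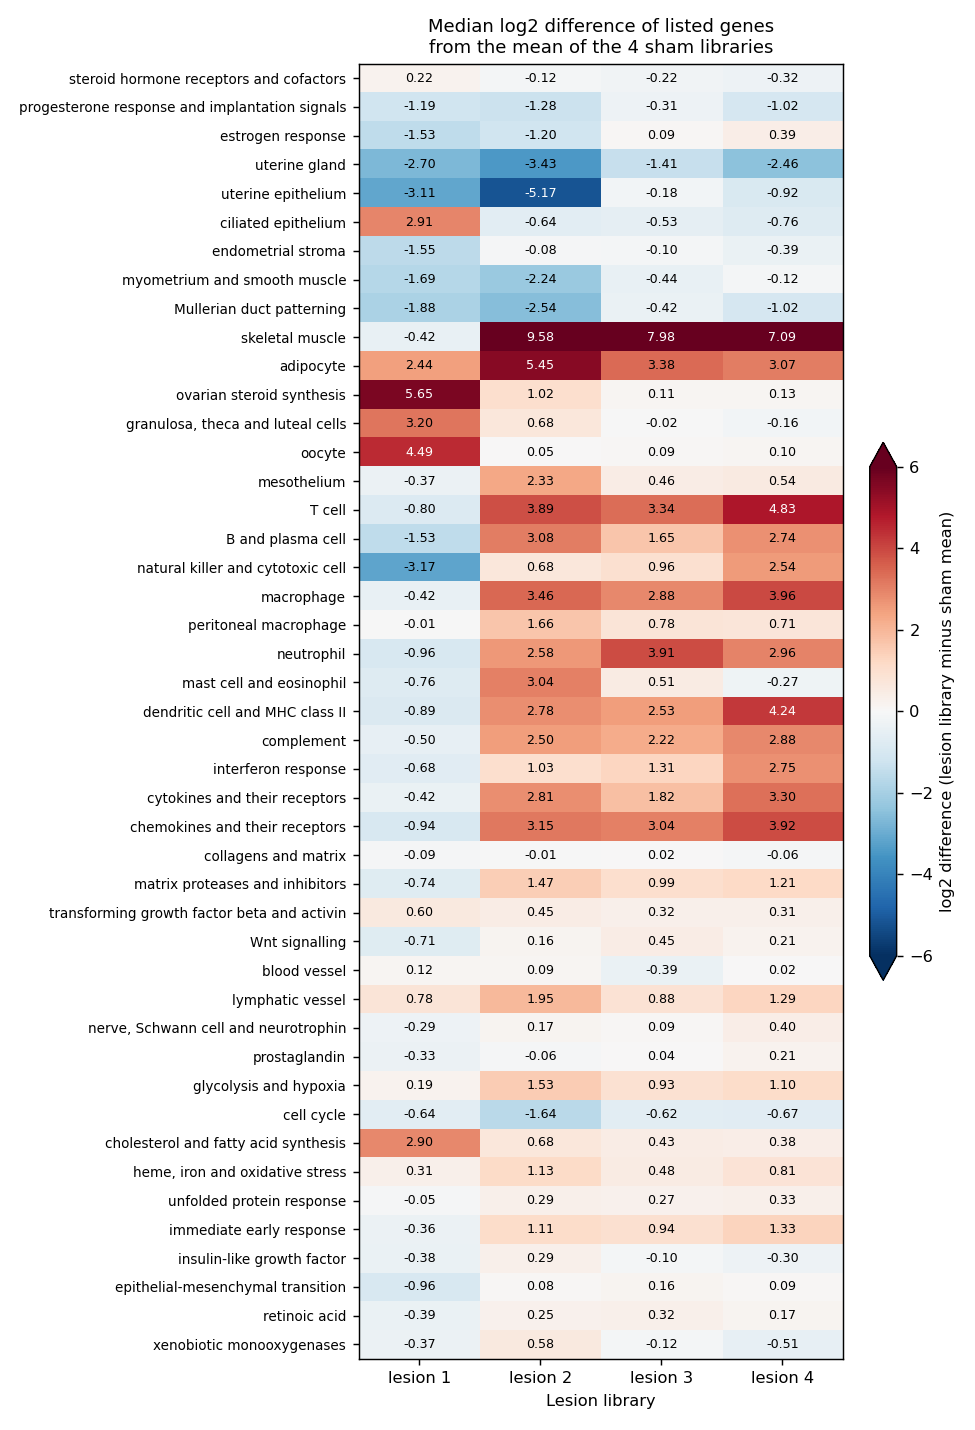
Median log2 difference of each gene list between a lesion library (columns) and the mean of the 4 sham libraries, with the value in each cell. Lesion 1 is below sham for immune lists (for example -0.80 for T cell genes) where lesions 2, 3 and 4 are above it (3.89, 3.34 and 4.83), and gland genes are negative in all 4 columns.

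Most immune lists stood above sham in lesions 2, 3 and 4 and had a median below sham in lesion 1, although single genes, such as Saa3, C7 and Cd36, were above every sham library there too. T cell genes summed to 71.4, 869, 557 and 1446 CPM in lesions 1 to 4 and to 80.4 to 145 CPM in sham. Of 23 tested 11 were higher and 0 lower, with a median of 3.54. Without lesion 1 the count was 21, beside 3618 of 20068 over all genes. Without sham 4 it was 0, beside 1.73% over all genes. Foxp3, the factor of regulatory T cells, was at 0.109, 11.7, 14.2 and 27.6 CPM in lesions and at 0.0512 to 0.342 CPM in sham (6.23 ± 1.40, adjusted p = 0.0327). Cd4 was at 2.89, 50.2, 56.8 and 116 CPM against 1.59 to 4.93 CPM (4.35, adjusted p = 0.0321). Cd8a was at 0.927, 25.7, 13.6 and 118 CPM against 0.631 to 2.34 CPM (4.97, adjusted p = 0.0451), and Cd3e, part of the receptor complex of all T cells, did not pass (3.44, adjusted p = 0.0573). Il7r, a receptor for a survival signal of T cells, and the brake receptor Ctla4 also rose. Lesion 4 was the highest library for most of these and lesion 1 lay within or just below the sham range.

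Some B cell genes separated the groups in all lesions, but the list as a whole did not. B and plasma cell genes summed to 504 CPM in lesion 1, below the sham range of 4087 to 8348 CPM. They summed to 12638, 12889 and 23997 CPM in lesions 2, 3 and 4. Ms4a1, which encodes the B cell surface protein CD20, was at 1.2, 50, 17.4 and 39.1 CPM in lesions and at 0.203, 0.0983, 0.171 and 0.136 CPM in sham (7.44 ± 1.13, adjusted p = 0.015, and 0.0421 without sham 4). Pax5, the factor that fixes B cell identity, was at 0.909, 14.5, 8.92 and 22.3 CPM against 0.0197 to 0.171 CPM (6.89 ± 1.09, adjusted p = 0.0167, and 0.0459 without sham 4). Even lesion 1 lay above every sham library for both. Of 19 B and plasma cell genes 7 were higher (2 without sham 4), and Cr2, a complement receptor of B cells, was among them. Of 18 genes of natural killer and cytotoxic cells 2 were higher, Gzmk and Ccl5 (0 without sham 4), near the share over all genes. Without lesion 1, 9 were higher and 1 lower, beside 3618 higher and 2680 lower of 20068 over all genes. Ncr1, a natural killer receptor, was at 0.527, 3.62, 11.9 and 15.8 CPM in lesions and at 5.8 to 8.67 CPM in sham (0.23 ± 0.81, adjusted p = 0.865).

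Macrophage genes were higher in lesions 2 to 4. They summed to 937, 27685, 11902 and 19851 CPM in lesions and to 870 to 1593 CPM in sham. Of 23 tested 14 were higher and 0 lower, with a median of 3.14. Of the 24 listed, 23 were higher without lesion 1, beside 4004 of 20936 over all genes. Without sham 4 the count was 0, beside 1.73% over all genes. Mmp12, the macrophage elastase, was at 3.94, 4256, 690.0 and 830.9 CPM in lesions and at 0.492 to 0.576 CPM in sham (11.4 ± 1.96, adjusted p = 0.0195, and 0.0524 without sham 4). Gpnmb, found in lipid-laden and scavenging macrophages, was at 13.7, 5443, 1374 and 1522 CPM against 10.2 to 14.7 CPM (7.47, adjusted p = 0.0255). Spp1, osteopontin, was at 1.33, 975.5, 1516 and 692.8 CPM against 11.9 to 15.6 CPM (5.90, adjusted p = 0.0415). Lesion 1 was inside or below the sham range for the last 2 genes. Cd68, a lysosomal protein of macrophages, and the scavenger receptor Cd36 were also higher, and Adgre1, a surface antigen of mouse macrophages, missed the threshold (2.53, adjusted p = 0.0535). Among 15 genes of resident peritoneal macrophages 4 were higher. Saa3, an acute-phase protein, was at 22.3, 73.6, 24 and 138 CPM against 0.426 to 0.918 CPM (6.55 ± 0.76, adjusted p = 0.00857, and 0.0264 without sham 4).

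Neutrophil genes were called higher in part of the list. Of 12 neutrophil genes 5 were higher (1 without sham 4), among them Mmp8, neutrophil collagenase, at 1.62, 3.62, 41.2 and 8.95 CPM against 0.0393 to 0.154 CPM (7.17 ± 1.25, adjusted p = 0.0202, and 0.049 without sham 4). The calcium-binding pair S100a8 and S100a9 rose by 4.39 and 3.96. Ly6g, which defines mouse neutrophils, had too few counts to be tested, at 0 to 0.446 CPM in lesions and 0.118 to 1.57 CPM in sham. Of 15 mast cell and eosinophil genes 13 had a positive difference (median 1.86), but only Hdc, which makes histamine and in the uterus responds to progesterone, was called. It was lower, at 59.7, 25.3, 83 and 37.8 CPM against 243, 305, 433 and 134 CPM (-2.44 ± 0.47, adjusted p = 0.0233, and 0.0353 without sham 4). Kit, the receptor that mast cells need, was at 30.5 to 82.2 CPM in lesions and at 43.1 to 62.9 CPM in sham (0.14 ± 0.29, adjusted p = 0.772).

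Signals between immune cells were higher in the same 3 lesions. Of 36 chemokines and receptors tested with all 8 libraries 14 were higher and 0 lower. Of the 42 listed, 4 were higher without sham 4 (41 tested). Without lesion 1, 34 of the 42 were higher, beside 4004 of 20936 over all genes. Cxcl13, which draws B cells into follicles, was at 0.145, 204, 60.8 and 154 CPM in lesions and at 0.239 to 0.339 CPM in sham (8.39 ± 1.71, adjusted p = 0.0271). Cxcl9, an interferon gamma target that draws T cells, was at 1.53, 133.1, 115.4 and 1095 CPM against 2.13 to 6.49 CPM (6.62, adjusted p = 0.0412). Ccr7, the homing receptor of dendritic cells and naive T cells, was at 0.836, 16.5, 13.3 and 32.8 CPM against 0.157 to 0.392 CPM (5.87 ± 1.02, adjusted p = 0.0202, and 0.0487 without sham 4). Of these, only Ccr7 was above sham in all lesions.

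Interleukin 1 genes led the cytokines. Of 33 cytokines and receptors tested with all 8 libraries 15 were higher and 0 lower. Of the 35 listed, 2 were higher without sham 4 (34 tested). Without lesion 1, 29 of the 35 were higher, beside 4004 of 20936 over all genes. Il1a was at 0.345, 8.56, 12.2 and 9.99 CPM in lesions and at 0.0169 to 0.109 CPM in sham (6.71 ± 1.14, adjusted p = 0.0192, and 0.0485 without sham 4). Il1b was at 2.65, 42.8, 43.3 and 51.5 CPM against 0.58 to 1.54 CPM (4.995 ± 0.87, adjusted p = 0.0202, and 0.0512 without sham 4). Il1rn, the natural antagonist of both, was at 0.8, 107, 81.6 and 94.6 CPM against 0.649 to 1.42 CPM (5.94 ± 1.23, adjusted p = 0.0277). Il12b, a subunit of interleukins that drive T cell responses, rose by 5.93. The agonists stood above sham in all 4 lesions, and the antagonist in lesions 2 to 4.

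Of 19 genes of dendritic cells and class II antigen presentation 8 were higher (1 without sham 4). Without lesion 1 the count was 17, beside 3618 of 20068 over all genes. H2-Eb1, a class II chain, was at 76.5, 1209, 883.3 and 3176 CPM against 42.2 to 151.3 CPM (3.57, adjusted p = 0.0485), and Ciita, the factor that switches class II genes on, rose by 3.58. Of 24 complement genes 8 were higher (2 without sham 4). C7, a part of the membrane attack complex, was at 18.1, 36, 13.4 and 4.94 CPM against 0.124 to 0.576 CPM (5.86 ± 0.78, adjusted p = 0.0119, and 0.0353 without sham 4). Its partner C6 rose by 3.48, with lesion 1 below every sham library. Of 29 interferon response genes 5 were higher (0 without sham 4). Of the 30 listed, 22 were higher without lesion 1, beside 4004 of 20936 over all genes. Ifi202b, an interferon-inducible gene, was at 0.218, 0.638, 10.6 and 21.3 CPM against 0 to 0.0682 CPM (7.82 ± 1.71, adjusted p = 0.031). It was low in lesion 2, where other immune genes were high.

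Some matrix genes rose. Collagen and matrix genes summed to 11086, 26891, 21693 and 20206 CPM in lesions and to 23827 to 35643 CPM in sham. Of 39 tested 8 were higher and 2 lower (4 and 1 without sham 4), with a median of 0.09. Thbs4 (ENSMUSG00000021702.8), a thrombospondin of tendon and healing tissue, was at 127, 164, 116 and 233 CPM in lesions and at 7.95, 14.4, 10.1 and 8.41 CPM in sham (3.97 ± 0.31, adjusted p = 0.00682, and 0.0192 without sham 4). Comp, another thrombospondin, was at 5.65, 9.04, 2.33 and 8.35 CPM against 0.441 to 0.853 CPM (3.36 ± 0.49, adjusted p = 0.0143). Col8a1, a short-chain collagen of remodelling vessels, was at 8.71, 53.6, 91.8 and 85.4 CPM against 3.27 to 4.21 CPM (3.97 ± 0.66, adjusted p = 0.0177). All 3 were called without sham 4. Cilp, a cartilage matrix protein that binds growth factors, rose by 4.17. Col1a1, the main fibrillar collagen, was at 461.4, 2556, 2800 and 2276 CPM against 5224, 4971, 4030 and 4753 CPM, without overlap, and did not pass (-1.23 ± 0.50, adjusted p = 0.126, and 0.0118 without lesion 1).

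Several proteases that cut the matrix were higher. Of 32 proteases and inhibitors 10 were higher and 1 lower (5 and 0 without sham 4). Mmp13, collagenase 3, was at 1.31, 25.8, 39.1 and 20.9 CPM in lesions and at 0.136, 0.138, 0.14 and 0.0341 CPM in sham (7.58 ± 1.09, adjusted p = 0.0143, and 0.0387 without sham 4). Plau (ENSMUSG00000021822.4), the urokinase that activates plasminogen, was at 175, 111, 100 and 90.7 CPM against 21, 17.9, 16 and 22.7 CPM (2.62 ± 0.24, adjusted p = 0.00682, and 0.0197 without sham 4). It was chosen after its values were seen. Timp4, a protease inhibitor, was at 13.4, 9.38, 2.48 and 1.3 CPM against 0.0509 to 0.109 CPM (6.40 ± 0.89, adjusted p = 0.0137). Lesion 1 held the highest Plau and Timp4 and the lowest Mmp13 of the lesions.

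Genes of transforming growth factor beta signalling were higher at the ligand and at the receptor. Of 26 genes 6 were higher and 1 lower (4 and 1 without sham 4). Tgfb1, the ligand, was at 54.2, 144, 93.7 and 162 CPM in lesions and at 35.2, 28.4, 28.6 and 23.2 CPM in sham (1.97 ± 0.34, adjusted p = 0.0192, and 0.0494 without sham 4). Tgfbr1 (ENSMUSG00000007613.16), the type I receptor, was at 233, 279, 181 and 169 CPM against 81.3, 55.6, 60 and 88.2 CPM (1.60 ± 0.23, adjusted p = 0.0142, and 0.0279 without sham 4). Ltbp2, a matrix protein of the family that holds the latent ligand, was at 20.4, 259, 92.1 and 212 CPM against 1.3 to 4.61 CPM (5.97 ± 0.90, adjusted p = 0.015). The groups did not overlap in any of the 3.

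Few genes of Wnt signalling were called. Of 39 genes 4 were higher and 2 lower (2 and 2 without sham 4), near the shares over all genes. Fzd2 (ENSMUSG00000050288.7), a Wnt receptor picked once its values were known, was at 30.6, 28.6, 42 and 32.5 CPM in lesions and at 133, 119, 116 and 109 CPM in sham. The groups lay far apart, and it fell by 1.83 ± 0.15 (adjusted p = 0.00682, and 0.0192 without sham 4). Sfrp1, a secreted Wnt inhibitor, was at 129, 356, 208 and 411 CPM against 34, 14.2, 12.7 and 32.9 CPM (3.56 ± 0.51, adjusted p = 0.0143, and 0.032 without sham 4). Sfrp4, another such inhibitor, was at 1346 CPM in lesion 1 and at 180.6 to 243.5 CPM in the other lesions against 38.9 to 89.9 CPM (2.85, adjusted p = 0.0431). The ligands Wnt2 and Wnt10a rose by 2.68 and 2.97 at levels of at most 5.49 and 0.569 CPM.

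Nerve genes were called in both directions. Of 26 tested, 5 were higher and 3 lower (2 and 3 without sham 4). Mbp (ENSMUSG00000041607.18), myelin basic protein, whose gene also gives transcripts in immune cells, was at 75.2, 105, 64.4 and 78 CPM in lesions and at 14.9, 12.7, 14.5 and 18.7 CPM in sham (2.41 ± 0.20, adjusted p = 0.00682, and 0.0184 without sham 4). Ngfr, the low-affinity neurotrophin receptor, was at 18.5, 9.73, 22.5 and 7.79 CPM against 83.8, 85.8, 92.5 and 229 CPM (-3.07 ± 0.49, adjusted p = 0.0167, and 0.0288 without sham 4). Both were chosen after their values were seen. Bdnf, a neurotrophin, was at 2.49, 1.87, 2.58 and 2.05 CPM against 0.39, 0.118, 0.171 and 0.102 CPM (3.50 ± 0.48, adjusted p = 0.0134). Dbh, which makes noradrenaline in sympathetic nerves, was at 0 to 0.0776 CPM against 0.356 to 1.36 CPM (-4.23 ± 0.75, adjusted p = 0.0208). Bdnf and Dbh were called without sham 4.

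Few blood vessel genes and 4 lymphatic genes were called. Of 28 blood vessel genes 2 were higher and 2 lower (0 and 0 without sham 4), near the shares over all genes, with a median of 0.04. Nrp1 and Nrp2, coreceptors for vascular growth factors, were higher (1.06 and 1.57), and Emcn, a surface protein of capillaries and veins, was lower (-0.90). Vegfa, the main vascular growth factor, was at 80.6 to 263 CPM in lesions and at 110 to 201 CPM in sham (-0.13 ± 0.37, adjusted p = 0.84). Of 10 lymphatic genes 4 were higher and 0 lower, none of them without sham 4. Pdpn, podoplanin, was at 37.3, 159, 84 and 135 CPM against 30 to 35.9 CPM (1.66 ± 0.40, adjusted p = 0.0372, and 0.0876 without sham 4). Sema3d, a guidance cue, rose by 2.64.

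Several genes of heme, iron and oxidative stress were higher. Of 31 tested 13 were higher and 0 lower (4 and 0 without sham 4), with a median of 0.76. Hmox1 (ENSMUSG00000005413.9), heme oxygenase 1, which breaks heme down, was at 72.5, 141, 183 and 128 CPM in lesions and at 12.8, 13.8, 13.2 and 11.6 CPM in sham. The sham values were nearly equal and every lesion was far above them, with a log2 difference of 3.35 ± 0.28 (adjusted p = 0.00682, and 0.0192 without sham 4). Cd163, the scavenger receptor for hemoglobin, was at 5.53, 58.8, 13 and 10.6 CPM against 0.551 to 2.57 CPM (3.55 ± 0.85, adjusted p = 0.0371). Slc11a1, an iron transporter of macrophage phagosomes, rose by 3.95, with lesion 1 inside the sham range. Red blood cell genes themselves were not called (0 of 7 in edgeR and in limma voom, and 1 higher in DESeq2), and Hbb-bs, adult beta globin, was at 44.3, 237, 34.1 and 40.1 CPM against 16.1 to 49.8 CPM (1.52 ± 0.70, adjusted p = 0.169).

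Several genes of glycolysis were higher in lesions. Of 26 genes of glycolysis and hypoxia 11 were higher and 1 lower (3 and 1 without sham 4). Bnip3, a hypoxia-induced mitochondrial protein, was at 76.9, 110, 70.4 and 41.5 CPM in lesions and at 20.7, 22.2, 23.2 and 16.2 CPM in sham (1.86 ± 0.29, adjusted p = 0.0155, and 0.0419 without sham 4). Aldoa, a glycolytic enzyme abundant in muscle, was at 701.0, 4482, 1795 and 1518 CPM against 331.0 to 370.4 CPM (2.60 ± 0.52, adjusted p = 0.0261). Slc16a3, which exports lactate, rose by 3.39. Slc2a3 was the lower gene, at 10.2 to 33.5 CPM in lesions, and sham 4 lay among them (-3.05 ± 0.78, adjusted p = 0.0431, and 0.0225 without sham 4). Aldoa followed the summed muscle level across lesions, and Bnip3 was high in lesion 1 too. The part of other tissues in either difference was not tested.

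Cell cycle genes lay low in lesions. In all, 15 of 27 cell cycle genes were lower in all lesions than in all sham libraries, against 12.2% of all genes. In edgeR on the 8 libraries only Tyms (-1.43) and Aurkb (-1.15), a DNA precursor enzyme and a mitotic kinase, were called lower. Neither was called without sham 4. Without lesion 1, 8 of the 27 were lower, beside 2680 of 20068 over all genes. The count was 9 with DESeq2 (2146 over all genes), 9 with limma voom (3367) and 20 with all 24 libraries in the edgeR fit (3791). Mki67, the standard marker of dividing cells, was at 113, 49.6, 108 and 120 CPM in lesions and at 213, 127, 129 and 275 CPM in sham (-0.93 ± 0.35, adjusted p = 0.11). Cdkn1a, the p21 inhibitor of the cycle, was the 1 higher gene, at 13.6, 122, 66.7 and 113 CPM against 14.3 to 16.8 CPM (2.36 ± 0.58, adjusted p = 0.0384). The list's median was -0.92, and -0.59 without sham 4, the sham library with the highest cell cycle sum.

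Prostaglandin genes were higher at some steps and lower at others. Of 25 tested 4 were higher and 5 lower (1 and 2 without sham 4). Ptges, which makes prostaglandin E2, was at 131, 53.6, 22.5 and 32.4 CPM in lesions and at 13.2 to 15.5 CPM in sham (2.07 ± 0.52, adjusted p = 0.0406). Tbxas1, thromboxane synthase, and the prostacyclin receptor Ptgir rose by 3.10 and 2.44. Ptgs2, the inducible cyclooxygenase, was at 0.254, 16, 14.4 and 25.5 CPM against 1.98 to 4.03 CPM and passed only without lesion 1 (2.36 ± 0.99, adjusted p = 0.135, and 0.00111 without it).

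The remaining signalling lists had a few members each. Of 22 immediate early genes 7 were higher and 1 lower (1 and 1 without sham 4). Nr4a1, an orphan nuclear receptor, was at 63.1, 87.5, 33.1 and 28.1 CPM in lesions and at 7.66 to 10.6 CPM in sham (2.51 ± 0.38, adjusted p = 0.015, and 0.0406 without sham 4), and Atf3, a stress-induced factor, rose by 3.52 (not called without sham 4, adjusted p = 0.107). Of 23 genes of the unfolded protein response 4 were higher (0 without sham 4), each by at most 3.52, with Dnajc3, a chaperone helper, at 0.63 ± 0.12. Of 15 insulin-like growth factor genes 3 were higher (1 without sham 4). Igfbp2, which binds these factors, was at 42.2, 3.8, 20.5 and 26.6 CPM against 0.475 to 1.67 CPM (4.39 ± 0.75, adjusted p = 0.0194, and 0.0439 without sham 4), and H19, an imprinted RNA, rose by 3.26 (not called without sham 4, adjusted p = 0.108). Of 16 retinoic acid genes Rdh10, which begins the synthesis of retinoic acid, fell by 2.06 and Crabp1, which binds it in the cell, by 4.67, while Dhrs3, which reverses the first step, rose by 1.12. Of 16 genes of the epithelial-mesenchymal transition Zeb2 rose by 1.28 and Twist2 and Snai1 fell by 2.55 and 1.02. Of the members named here that moved in the last 2 lists, 0 were called without sham 4. Of 26 cholesterol and fatty acid genes 0 were called in edgeR on the 8 libraries, 2 higher and 1 lower in DESeq2 and 11 higher and 1 lower in limma voom. With all 24 libraries in the fit edgeR called 18 higher and 1 lower, beside 4640 higher and 3791 lower of 20068 over all genes. Without lesion 1 it called 2 higher and 1 lower. The list's median of 1.73 came from lesion 1 (2.90) more than from the others (0.38 to 0.68).

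Each lesion was also described by the genes in which it stood highest over the other 7 libraries, with no test. In lesion 1 these were Lhcgr, the receptor for luteinising hormone, at 2080 CPM against at most 18.4 CPM elsewhere, and Hsd3b1, Cyp11a1, Akr1cl and Pik3c2g. In lesion 2 they were Sbk2 (89.8 against 4.20 CPM), Itgad, Folh1, Pck1, the enzyme that begins the making of glucose, and Aqp7, the glycerol channel of fat cells. In lesion 3 they were Arg1, arginase 1 (482 against 35.6 CPM), Chil1, the neutrophil chemoattractant Cxcl5, Mmp8 and Uox. In lesion 4 they were Ido1, which degrades tryptophan (79.4 against 2.75 CPM), the interferon-induced GTPases Gbp2b and Gbp10, Cxcl9 and Serpina3f.

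Lesions against sham at 1 month is the nearest comparison and shares no library with this one. Of 21590 genes tested for a change of the lesion-sham difference from 1 to 3 months, edgeR called 0. Its lowest adjusted p was 0.081, and 3021 genes had an unadjusted p below 0.05. The other tools called 670 (DESeq2) and 355 (limma voom), and edgeR called 341 without lesion 1 of 3 months and 194 without lesion 3. Among the uterine panel, the change was -1.90 ± 0.96 for Pgr, from -0.35 at 1 month, and -1.12 ± 0.39 for Esr1, from -0.57. It was -2.09 ± 0.67 for Sox17, from -0.47, and -1.61 ± 0.82 for Hand2, from -0.95 (adjusted p = 0.396, 0.234, 0.209 and 0.399 for the 4 genes). Foxa2 was already at -2.82 at 1 month and Wnt4 at 3.00, with changes of -0.52 and -0.65. The smallest adjusted p among the genes named here was that of Bnip3 (change 1.91 ± 0.36, from -0.05 at 1 month, adjusted p = 0.0991). The median change was 5.47 for skeletal muscle genes and -1.66 for epithelial genes, against 0.04 over all genes. The mice at 3 months were also older.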

How the data were processed

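RNA was sequenced from lesions and sham uteri, 4 libraries each, out of 24 libraries. The deposited table holds raw counts per gene for 56691 genes, made by the authors with bcl2fastq 1.9.0, STAR 2.7.9a and build mm39, per the submitters' processing notes. Which annotation was counted, how, and whether by strand is not given in the sources used here.

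Counts were tested with edgeR 4.0.16 (quasi-likelihood, TMM scaling, filterByExpr) on the 8 libraries alone, in R 4.3.3, and adjusted by Benjamini-Hochberg over all 20068 tested genes, with calls at an adjusted p under 0.05. SE is the log2 difference divided by the square root of F. Log2 CPM values used a prior count of 2. DESeq2 1.42.0 and limma 3.58.1 (voom with sample weights), other size factors, no filter, all 24 libraries, a replicate block and left-out libraries were alternatives. The change from 1 to 3 months was an interaction over 16 libraries. The scripts were tested on simulated data.

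Named genes were a panel of 12 uterine genes, the 8 called genes with the widest gap in each direction at a mean log2 CPM of at least 1 (unnamed models left out), up to 4 called members per list by size plus defining members not called, and the 5 genes in which each lesion stood highest. The members and the 50 lists were chosen with earlier results of these data known. A gene near 0 in sham passes filterByExpr only through the lesions, so such genes could hardly be called lower. Of 16 oocyte genes 7 were tested, of 20 for steroid synthesis 15, of 18 neutrophil genes 12 and of 42 chemokine genes 36. Counts with libraries left out are over the listed genes tested in that fit, which can be more than with all 8 libraries. Libraries held 46945159 to 59407134 counts. Counting error was not compared with the spread between lesions. Some named genes rest on few counts, such as Wnt10a, with 92 summed over lesions and 13 over sham. Results for a few genes are not reported here.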

Additional observations from a re-analysis of the deposited data

Results flagged for a closer look

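In 46 of 418 groups of 4 libraries examined (the 4 lesions or the 4 sham uteri, for the log2 CPM of 1 named gene or for the total counts), the highest or lowest library stood apart: its gap to the nearest other library, divided by the range of the group, was above Dixon's 95% critical value. Chance alone gives this in about 1 group in 20. The ratio follows each gene. Lesion 1 stood above its group for Wnt4 (0.866), Bmp2 (0.831), Inhba (0.955), Sfrp4 (0.851) and Gdf9 (0.930). Lesion 1 stood below its group for Atp2a1 (0.846), Foxp3 (0.836), Ctla4 (0.904), Spp1 (0.888), Il1a (0.898), Il1rn (0.943), Il1b (0.938), Wnt2 (0.841), Msln (0.965), Ptgs2 (0.872) and Col1a1 (0.885). Lesion 2 stood above its group for Nr3c2 (0.895), Cd34 (0.926) and Hbb-bs (0.864). Lesion 2 stood below its group for Foxa2 (0.843), Mki67 (0.872) and Top2a (0.935). Lesion 3 stood above its group for Snai1 (0.869). Lesion 3 stood below its group for Wnt10a (0.898). Sham 1 stood above its group for Cxcl9 (0.838), Nrp1 (0.960) and Egr2 (0.862). Sham 1 stood below its group for Ltf (0.863), Aqp8 (0.905), Clca3a2 (0.944) and Aqp5 (0.837). Sham 2 stood below its group for Cd163 (0.856) and Chil1 (0.840). Sham 3 stood above its group for Myl1 (0.877). Sham 3 stood below its group for Wnt2 (0.863). Sham 4 stood above its group for Wnt4 (0.848), Slitrk3 (0.852), Runx1 (0.838), Foxj1 (0.832) and Ngfr (0.901). Sham 4 stood below its group for Cyp3a59 (0.849), Pla2g10 (0.834), Cd34 (0.837), Cxcl13 (0.894), Mmp13 (0.972) and Slc2a3 (0.965). What set these libraries apart was not tested.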

How the results depend on the processing

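The number of genes called was 2600. It was 6211 with DESeq2, 1650 with no filter on low counts, 7324 with limma voom, 9257 with all 24 libraries in the fit, 5953 without lesion 1 and sham 4, and 5212 without lesions 1 and 2. With DESeq2 size factors it was 2578. Leaving out 1 library at a time gave 0 (without sham 2) to 6773 (without lesion 1), with 56 without sham 3 and 561 without sham 1. With a replicate block edgeR called 0. Its lowest adjusted p was then 0.0741, and 5205 genes had an unadjusted p below 0.05. The labels give the groups the same replicate numbers, but deviations of same-numbered samples correlated at -0.0958, -0.0527, 0.118 and -0.0148, so the numbers were not taken as pairs. The change from 1 to 3 months had 0 genes called, 670 with DESeq2, 355 with limma voom, 465 with all 24 libraries, 4 with the replicate block, and 0 to 341 when 1 library was left out.

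Over 213 named genes and 3390 values, 2292 kept direction and side of the threshold, 962 kept direction but were no longer called, 117 were newly called and 19 turned. Pik3c2g turned to -1.02 with limma voom, -0.416 without lesion 1 and sham 4, and -2.03 without lesions 1 and 2, and leaving out 1 library gave -0.305 to 6.13. Akr1cl (-0.979) turned without lesions 1 and 2. Pck1 turned with the replicate block (-0.274) and without lesions 1 and 2 (-0.306), and leaving out 1 library gave -0.651 to 2.175. Ncr1 turned with the replicate block (-0.494), and leaving out 1 library gave -0.331 (lesion 4; -0.0232 for lesion 3) to 0.616. Kit turned without lesion 1 and sham 4 (-0.0282), and leaving out 1 library gave -0.0652 (lesion 1) to 0.382. Leaving out 1 library also turned Itgad (-0.405 to 3.35), Mcpt4 (-0.206 to 2.20) and Fn1 (-0.101 to 0.696), each by lesion 2, Uox (-0.0281 to 2.27) by lesion 3, and Prf1 (-0.567 to 1.63) and Vegfa (-0.563 to 0.0839) by lesion 4. The cause was not tested. Each of the 8 libraries held at least 46945159 counts. Whether depth or the spread between lesions limits the comparison more was not tested.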
